A study of Mus musculus with 357 samples.

Results

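Single hematopoietic stem cells (HSCs) isolated 2 weeks after labelling were divided by whether they gave a product for Cdkn1b, the gene of the cell cycle inhibitor p27. The groups were chosen by the Cdkn1b threshold cycle (Ct), the cycle at which fluorescence passes a threshold: a Ct of 25 or below made a cell Cdkn1b-detected, and a later or missing product made it Cdkn1b-undetected. Of the 183 cells at 2 weeks, 93 were detected and 90 undetected, out of 357 cells in the whole series. Plate 1 held 42 detected and 48 undetected cells, and plate 2 held 51 and 42.

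The mice were Col1a1-tetO-H2B-mCherry. Their marrow was sorted for Lin-Sca1+c-kit+CD48-CD150+ cells. In these mice a fluorescent histone is induced and is then diluted as cells divide. The same transgene and sort applied to every group, including the 174 cells from 5 weeks, of which 154 were detected and 20 undetected. A tetO transgene needs a transactivator, and its driver, the age and number of the mice and the label content of each cell were not stated in the labels used. The labels name no animal, so the 2-week cells counted as 1 sample: differences are given as values on each of the 2 plates, shares carry 95% Clopper-Pearson (exact) intervals, which reflect counting error alone, and no p value was computed.

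p27 binds complexes of cyclins with cyclin-dependent kinases and restrains the passage from G1 into S phase. It belongs to the CIP/KIP family with p21 (Cdkn1a) and p57 (Cdkn1c). In adult HSCs, which divide rarely, p27 and p57 are known as inhibitors that help keep cells out of cycle. Much of the control of p27 is exerted on the protein, through its degradation, which a transcript assay does not see.

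At 2 weeks each Cdkn1b reaction gave either a product at Ct 21.3 or earlier or no product, and a missing product does not show that the transcript was absent. On plate 1 the product had a Ct between 14.4 and 18.9 with a median of 16.6, and on plate 2 between 13.2 and 21.3 with a median of 16.7. These values placed the cells in their groups and are a description only. The 3 latest products of the detected group had a Ct of 18.9, 20.5 and 21.3. No cell had a product later than 25, so the cells just outside the limit were all reactions with no product, and any later limit would have made the same groups. At 5 weeks the product had a median Ct of 15.8 on plate 1 and 16.2 on plate 2, and 10 cells of each plate had no product. The latest products there had a Ct of 19.3 on plate 1 and 24.2 on plate 2.

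**Figure D1:**
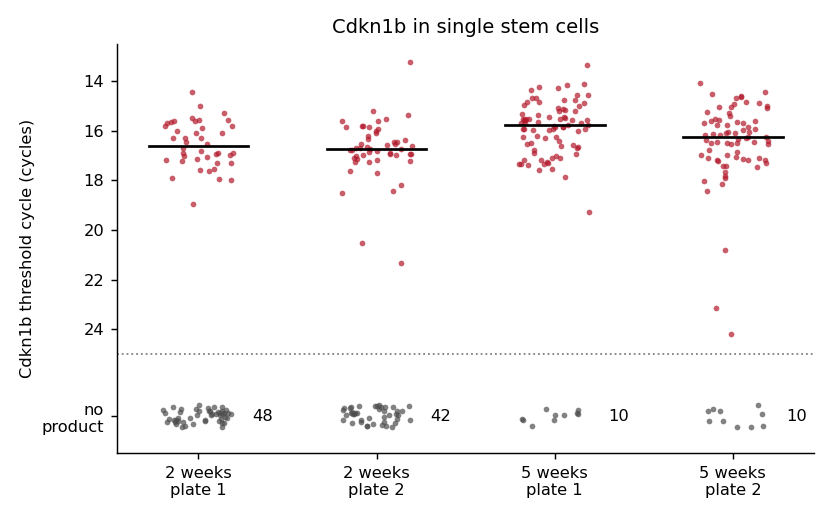
Cdkn1b threshold cycle (Ct, vertical axis, in cycles, earlier cycles at the top) of every cell on the 4 plates. Points are cells, the black line is the median of the cells with a product, the dotted line is the limit of 25, and the grey points with their count are reactions with no product: 48 and 42 at 2 weeks, 10 and 10 at 5 weeks.

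Cells with a Cdkn1b product also had somewhat more of the reference transcripts, chiefly on plate 1. Actb encodes beta-actin and Gapdh a glycolytic enzyme, and both were detected in every cell. The mean Ct of Actb and Gapdh on plate 1 was 9.29 at lowest, 11.5 at the median and 12.8 at highest in detected cells, and 10.2, 11.8 and 12.6 in undetected cells. On plate 2 the same 3 values were 9.84, 11.3 and 12.8 in detected and 9.80, 11.5 and 13.6 in undetected cells. The groups overlapped over nearly their whole range. The mean was lower in detected cells by 0.40 cycles on plate 1 (11.4 ± 0.71 against 11.8 ± 0.55, SD over cells) and by 0.16 on plate 2 (11.4 ± 0.70 against 11.5 ± 0.82), both within 1 SD. Ordered by this mean Ct and cut into 3 equal parts, plate 1 had a Cdkn1b product in 66.7% of the cells with the lowest Ct (interval 47.2 to 82.7%), 43.3% of the middle part and 30% of the part with the highest Ct (14.7 to 49.4%). Plate 2 showed no such order, with 48.4%, 61.3% and 54.8%.

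Out of the 95 other assays, a detected cell had a product in 55.8 ± 5.4 (SD, n = 42 cells) on plate 1 and an undetected cell in 54.3 ± 4.86 (n = 48). On plate 2 the numbers were 53.3 ± 4.96 (n = 51) and 53 ± 5.79 (n = 42). The differences of 1.5 and 0.25 assays were small beside the spread between cells. On plate 1 the share of detected cells also differed by place, with 16 of 47 cells in rows A to D and 26 of 43 in rows E to H, while on plate 2 it was 24 of 46 and 27 of 47. The mean Ct of Actb and Gapdh in these 2 blocks of rows on plate 1 was 11.6 in each. Amount of RNA in a cell and efficiency of its reactions cannot be told apart in these values.

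**Figure D2:**
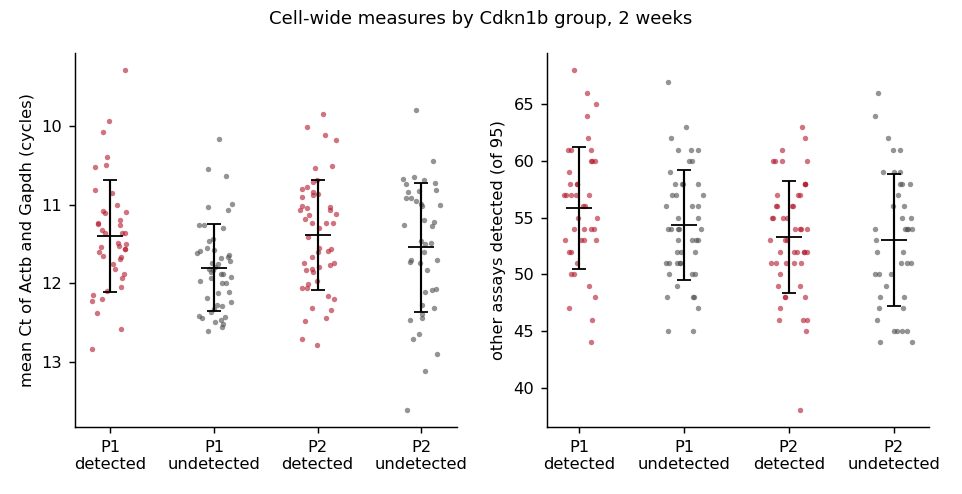
Mean Ct of Actb and Gapdh (left, in cycles, earlier cycles at the top) and number of the 95 other assays with a product (right) in each 2-week cell, by plate (P1, P2) and Cdkn1b group. Points are cells, and black marks are means with SD; the groups overlap in both measures, with mean Ct differences of -0.40 and -0.16 cycles.

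The main comparison asked which transcripts were found more or less often in cells with Cdkn1b. It used the 68 assays detected in 5 to 95% of the 2-week cells; of the other 27, 7 were rarer and 20 more frequent. Cells with a lower mean Ct of Actb and Gapdh had more products: in the 3 parts named above, from lowest to highest Ct, a cell had 57.9, 54.5 and 52.7 other assays detected on plate 1 and 56.5, 52.4 and 50.5 on plate 2. The difference in share was therefore taken from a least-squares fit of detection on the Cdkn1b group and the mean Ct of Actb and Gapdh within each plate. An assay was called when this adjusted difference was at least 10 percentage points in the same direction on both plates. By this rule 2 assays were higher in Cdkn1b-detected cells (2.94% of those compared) and 1 was lower (1.47%). Without the allowance for Actb and Gapdh 1 was higher (1.47%) and 0 were lower (0.0%). The shares of the 2 groups had overlapping exact intervals for all 68 assays, on each plate and with the plates pooled.

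The higher assays were ndn and mettl7a1, and the lower one was GMNN. ndn measures Ndn, the gene of necdin, a growth suppressor that binds E2F1 and p53 and is known from quiescent HSCs. On plate 1 a product was found in 31 of 42 Cdkn1b-detected cells, or 73.8% (interval 58 to 86.1%), and in 29 of 48 undetected cells, or 60.4% (45.3 to 74.2%). On plate 2 it was found in 30 of 51, or 58.8% (44.2 to 72.4%), and 20 of 42, or 47.6% (32 to 63.6%). Detected cells were thus higher by 13.4 and 11.2 points, and by 12.3 and 10.5 points with the allowance. In the parts of the plates with the lowest, middle and highest mean Ct of Actb and Gapdh, Cdkn1b-detected cells were higher by 23.3, 1.40 and 8.24 points (27 of 35 against 14 of 26 cells, 17 of 32 against 15 of 29, and 17 of 26 against 20 of 35), so most of the difference lay in the part with the lowest Ct. This was the single assay called both with and without it. 34.5% of the ndn products were later than Ct 18, and with those set to undetected the mean adjusted difference was 19.7 points. Its Ct in cells with a product ran from 15.6 to 22.6 with a median of 17.5 in Cdkn1b-detected cells and from 15.4 to 22.8 with a median of 17.8 in undetected cells. Its level among these cells, which is how many cycles (log2 units) the product trails the mean of Actb and Gapdh, with the sign turned, differed by -0.31 on plate 1 and 0.62 on plate 2, so the plates did not share a direction.

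The start regions are shown for Cdkn1b, which made the groups, and for Ndn, whose assay was the single one called with and without the allowance. They are from the RefSeq annotation, GRCm38.p6, plus strand, 250 bases before to 50 after the start, at chr6:134920151-134920450 for Cdkn1b and chr7:62348027-62348326 for Ndn. Capitals mark CCAAT, the letters bound by NF-Y, and GGGCGG, those bound by Sp1, on either strand.
Cdkn1b: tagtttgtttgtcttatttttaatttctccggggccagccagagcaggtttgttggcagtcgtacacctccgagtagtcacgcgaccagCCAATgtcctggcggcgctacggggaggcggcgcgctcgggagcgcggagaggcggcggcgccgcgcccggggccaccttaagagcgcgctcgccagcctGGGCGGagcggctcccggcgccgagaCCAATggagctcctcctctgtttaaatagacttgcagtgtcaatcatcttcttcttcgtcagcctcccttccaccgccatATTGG
Ndn: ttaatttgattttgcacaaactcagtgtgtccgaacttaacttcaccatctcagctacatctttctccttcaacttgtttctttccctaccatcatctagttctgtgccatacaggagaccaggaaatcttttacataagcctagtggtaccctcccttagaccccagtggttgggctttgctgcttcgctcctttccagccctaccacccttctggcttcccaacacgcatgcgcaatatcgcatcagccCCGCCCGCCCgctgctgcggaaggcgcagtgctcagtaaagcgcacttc
The Cdkn1b region held CCAAT 3 times and GGGCGG 1 time. The Ndn region held CCAAT 0 times and GGGCGG 2 times, these 2 overlapping each other. Of 32851 regions of the same length in that table, 37.4% held CCAAT and 35.7% GGGCGG. A match is a run of letters and not a measured binding site, and the window says nothing on sites elsewhere.

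mettl7a1 measures Mettl7a1, a methyltransferase-like protein of lipid droplets and the endoplasmic reticulum. It had a product in 33 of 42 Cdkn1b-detected cells (78.6%) and 35 of 48 undetected cells (72.9%) on plate 1, and in 36 of 51 (70.6%) and 25 of 42 (59.5%) on plate 2. The differences were 5.65 and 11.1 points, and 13.2 and 13.8 with the allowance. It was found less often in cells rich in Actb and Gapdh: ordered by the mean Ct of these genes, its share was 59% in the part of each plate with the lowest Ct, 72.1% in the middle part and 80.3% in the part with the highest. In those 3 parts, Cdkn1b-detected cells were higher by 15.7, 12.6 and 0.77 points. Its Ct medians were 16.2 and 16.6 in detected and undetected cells, with ranges of 14.5 to 20.6 and 14.1 to 18.2.

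GMNN measures Gmnn, the gene of geminin, which binds the licensing factor Cdt1 and blocks a further round of replication in S and G2 phase. On plate 1 a product was found in 13 of 42 Cdkn1b-detected cells, or 31% (interval 17.6 to 47.1%), and 16 of 48 undetected cells, or 33.3% (20.4 to 48.4%). On plate 2 it was found in 21 of 51, or 41.2% (27.6 to 55.8%), and 24 of 42, or 57.1% (41 to 72.3%). The plain differences were -2.38 and -16.0 points, and -14.8 and -20.4 with the allowance, so its call rests on the allowance above all on plate 1. Detection of geminin followed the reference level: it was found in 67.2% of the cells in the part with the lowest mean Ct of Actb and Gapdh, 29.5% of the middle part and 24.6% of the part with the highest. Within those parts the difference between Cdkn1b-detected and undetected cells was -16.9, -9.48 and -9.34 points (21 of 35 against 20 of 26 cells, 8 of 32 against 10 of 29, and 5 of 26 against 10 of 35). Among cells with a product, the median Ct was 15.4 in both groups, with ranges of 12.3 to 21.1 and 11.9 to 21.2.

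With the block of rows as a further covariate, chosen after the uneven rows of plate 1 were seen, the mean adjusted differences of ndn, mettl7a1 and GMNN were 10.7, 12.4 and -17.5 points, against 11.4, 13.5 and -17.6 without it. With the number of other detected assays in place of Actb and Gapdh, ndn kept its call at a mean of 12.1 points. The other 2 were not called under that covariate, with means of 8.33 for mettl7a1 and -11.9 for GMNN.

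**Figure D3:**
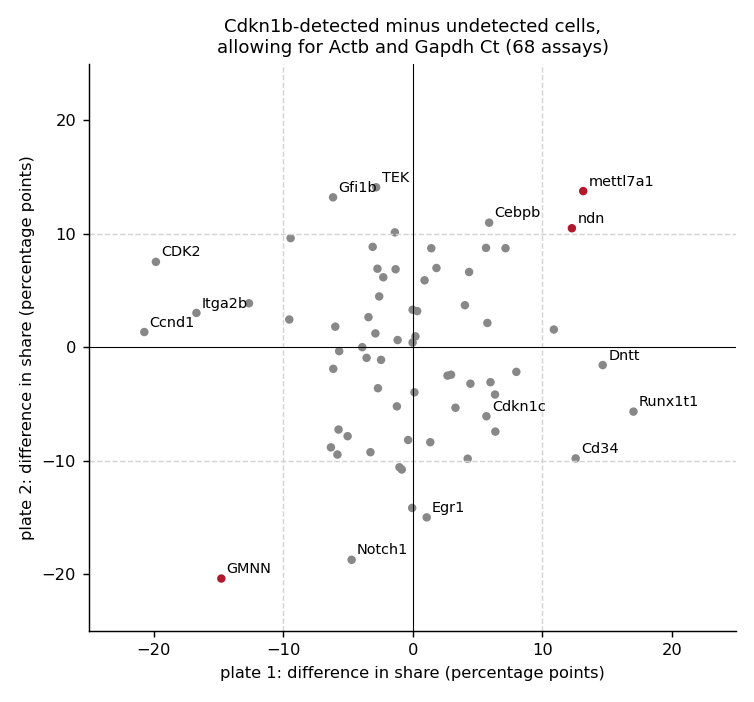
Difference in detection share, Cdkn1b-detected minus undetected cells, allowing for the mean Ct of Actb and Gapdh, on plate 1 (horizontal axis) and plate 2 (vertical axis), in percentage points. Points are the 68 assays, dashed lines mark 10 points, and red points are past them in the same direction on both plates: ndn and mettl7a1 at the upper right and GMNN at the lower left.

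Beyond these 3, the plates did not repeat each other. Of the 68 assays 16 had a positive and 17 a negative adjusted difference on both plates, and 35 had opposite signs. Across the assays, the plate 1 and plate 2 differences had a Spearman's rho of -0.01 and a Pearson's r of 0.03, given as a description over 68 assays that share the cells of each plate. The mean difference of 12 assays had opposite signs with and without the allowance. The median adjusted difference was -0.05 points, and the mean of both plates ran from -17.6 to 13.5. Several large differences belonged to 1 plate: Runx1t1, a corepressor gene, differed by 17.1 and -5.67 points, Cd34, a sialomucin of progenitors, by 12.6 and -9.80, and Dntt, a DNA polymerase of lymphoid cells, by 14.7 and -1.57. In the other direction Notch1, a receptor of lymphoid and stem cell signalling, differed by -4.71 and -18.7 points, with products in 21 of 42 and 26 of 48 cells on plate 1 and in 20 of 51 and 24 of 42 on plate 2. Its mean of -11.7 was the second lowest after GMNN.

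The other CIP/KIP genes were found about as often with Cdkn1b as without it. Cdkn1c had a product in 46 of 93 Cdkn1b-detected cells, or 49.5% (interval 38.9 to 60.0%), and in 46 of 90 undetected cells, or 51.1% (40.3 to 61.8%). Its adjusted differences were 5.70 and -6.08 points, with opposite signs on the plates. Its Ct ran from 14.9 to 18.3 in detected and from 14.4 to 19 in undetected cells. Cdkn1a had a product in 12 of 93 cells (12.9%) and 10 of 90 cells (11.1%), with adjusted differences of 2.97 and -2.42 points. Combinations of the 3 inhibitors were accordingly mixed: 42 of 183 cells had Cdkn1b alone, 40 had Cdkn1c alone, 39 had Cdkn1b with Cdkn1c, and 40 had none of the 3. A product of Cdkn1a was alone in 4 cells, with Cdkn1b in 5, with Cdkn1c in 6 and with both in 7. Cells with none made up 21.9% (16.1 to 28.6%), or 26.7% on plate 1 and 17.2% on plate 2.

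The INK4 inhibitors, which block CDK4 and CDK6, and the pocket proteins, which hold E2F factors, held 6 measured genes, and 0 of the 6 were called. Over all 68 assays 2.94% were called higher and 1.47% lower. A count of 0 in a list this short is close to those shares, here and in the lists below. Their median adjusted difference was 0.84 points, beside -0.05 over all 68. Cdkn2d, the gene of p19INK4d, was found in 67 of 93 and 59 of 90 cells and differed by 4.04 and 3.71 points, and Rbl1, the gene of the pocket protein p107, by -6.12 and -1.90. A Cdkn1b-detected cell had a product in 3.40 ± 1.11 of the 6 assays on plate 1 and 3.29 ± 0.86 on plate 2, and an undetected cell in 3.06 ± 1.06 and 3.14 ± 1.22 (SD over cells).

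**Figure D4:**
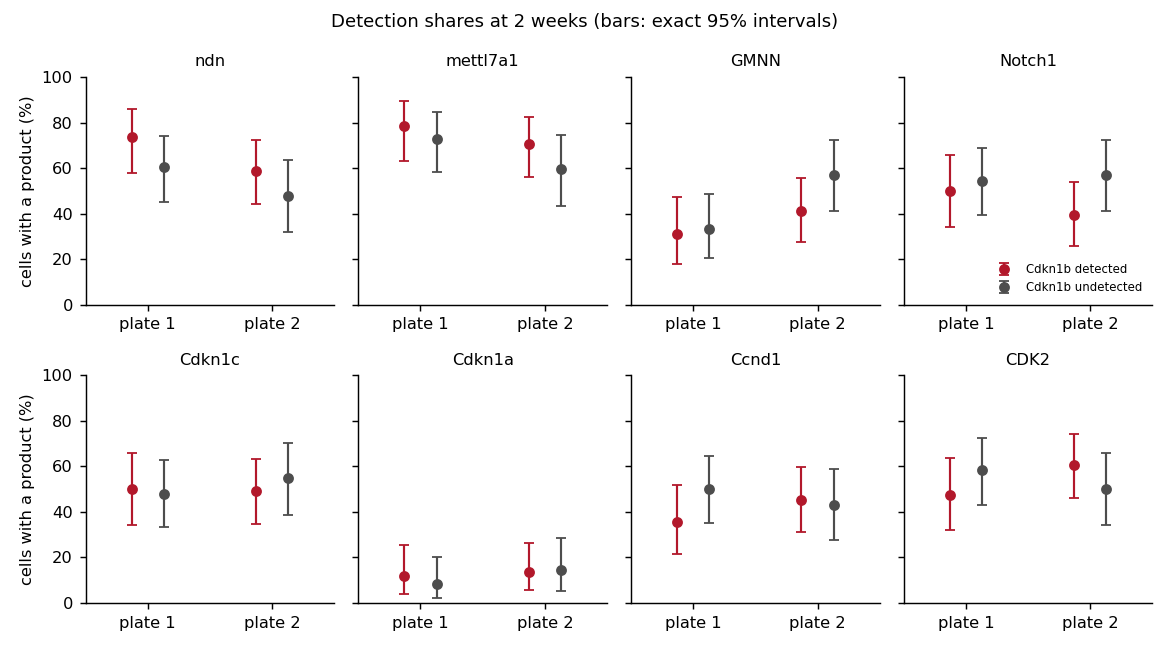
Share of 2-week cells with a product (vertical axis, in percent) for 8 assays, in Cdkn1b-detected (red) and undetected (grey) cells of each plate. Bars are exact 95% intervals, and they overlap in every panel; ndn and mettl7a1 are higher in red and GMNN and Notch1 lower in red on both plates, while Ccnd1, CDK2, Cdkn1c and Cdkn1a change order between plates.

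Cyclins and their kinases, the partners that p27 acts on, were not called either (0 of 5 compared), although all 5 had a mean adjusted difference below 0, with a median of -6.14 points. Without the allowance that median was -1.36. Ccnd1, the gene of cyclin D1, had a product in 15 of 42 Cdkn1b-detected and 24 of 48 undetected cells on plate 1, and in 23 of 51 and 18 of 42 on plate 2, with adjusted differences of -20.7 and 1.34. CDK2, the kinase of cyclins E and A that p27 inhibits, was found in 20 of 42 and 28 of 48 cells on plate 1 and in 31 of 51 and 21 of 42 on plate 2, with adjusted differences of -19.8 and 7.53. These genes were lower with Cdkn1b on plate 1 and not on plate 2. Ccne1 (cyclin E1) differed by -3.25 and -9.25 points, Ccnd3 (cyclin D3) by -2.67 and -3.61, and CDK6 by -2.44 and -1.11. Ccnd2 (cyclin D2) and CDK4 had a product in every cell of both groups.

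Of replication and proliferation genes, GMNN was called and Cdt1 and Myc were not (1 of 3 lower, beside 1.47% of all 68 assays, median -6.49 points). Without the allowance 0 of the 3 were called and the median was -1.41, with plain differences of 2.08 and -4.90 for Myc and 1.49 and 4.06 for Cdt1. Myc, a transcription factor of growth and proliferation, was found in 75 of 93 and 74 of 90 cells, with adjusted differences of -5.72 and -7.25 points. Cdt1, which loads the replicative helicase, had a mean adjusted difference of -3.01 points, and 72% of its products were later than Ct 18. A cell had a product in 1.6 of the 3 assays with Cdkn1b and 1.58 without it on plate 1, and in 1.78 and 1.95 on plate 2.

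In the p53 list, ndn was called higher and Mdm2 was not called, beside 2.94% of all 68 assays called higher. Mdm2, which drives p53 degradation, was found in 52 of 93 and 43 of 90 cells, with adjusted differences of 1.84 and 6.99 points, and Trp53 had a product in every cell. The immediate early genes, which respond within minutes to stimulation, had 0 of 3 called and a median of -5.81 points (-5.98 without the allowance). Egr1 was found in 20 of 42 and 21 of 48 cells on plate 1 and in 15 of 51 and 19 of 42 on plate 2, with adjusted differences of 1.09 and -15.0, and Fos differed by -0.84 and -10.8. Gfi1, a repressor that restrains HSC division, was found in 13 of 93 and 12 of 90 cells. Its plain differences were 1.79 and -0.56 points, and 10.9 and 1.57 with the allowance, so its size on plate 1 came with the allowance.

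Stem cell genes gave 0 called of 6 compared and a median of -0.03 points (0.84 without the allowance), and 7 further measured members lay outside the range compared. The homeobox gene Nkx2-3 (assay Nkx2.3) differed by 7.17 and 8.73 points, all of its products being later than Ct 18. TEK, the angiopoietin receptor TIE2, was found in 19 of 42 and 20 of 48 cells on plate 1 and in 29 of 51 and 18 of 42 on plate 2, with adjusted differences of -2.81 and 14.1. Prdm16 had a product in 0 of 183 cells, and 3 counts in that number, the upper limit for a count of 0, would be 1.64%. Lyl1, a basic helix-loop-helix factor of HSCs, lay above the range compared and was missing in 1 of 93 Cdkn1b-detected and 7 of 90 undetected cells, with adjusted differences of 4.50 and 7.48 points. Tal1, its relative, differed by 4.36 and 6.64.

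The sort markers did not separate the groups. Kit, the stem cell factor receptor, was found in 92 of 93 and 89 of 90 cells, Cd48 in 1 cell of each group, and Slamf1, the gene of CD150, in 68 of 93 and 64 of 90. Ly6a, the gene of Sca1, was found in 35 of 42 and 45 of 48 cells on plate 1 and in 49 of 51 and 38 of 42 on plate 2, with adjusted differences of -1.31 and 6.88 points. The transcripts of the positive sort markers were therefore present in most cells of both groups. Of 25 listed markers of mature blood, endothelial and stromal cells 0 were among the assays analysed here.

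Lineage genes likewise gave 0 called assays, beside 2.94% higher and 1.47% lower over all 68. The counts were 0 of 5 of megakaryocytes and erythroid cells, 0 of 4 of granulocytes and monocytes, and 0 of 5 lymphoid ones, with medians of -3.21, 0.94 and 0.10 points. Without the allowance these medians were 4.16, 1.84 and -0.19, so the first and the last turned sign. Itga2b, the gene of CD41, was found in 17 of 42 and 19 of 48 cells on plate 1 and in 22 of 51 and 15 of 42 on plate 2. Its plain differences were 0.89 and 7.42 points, and -16.7 and 3.03 with the allowance. Of the Itga2b products 93.2% were later than Ct 18. With those set to undetected its mean adjusted difference turned from -6.83 to 3.33 points. Gata1, the erythroid and megakaryocytic factor, was found in 6 of 42 and 5 of 48 cells and in 4 of 51 and 6 of 42, with plain differences of 3.87 and -6.44 and adjusted ones of -6.31 and -8.83. For both genes the direction on plate 1 came with the allowance. Cebpb, a factor of granulocytes and monocytes, differed by 5.91 and 11 with it. Cebpb was found in 17 of 93 and 9 of 90 cells. Cebpa, which granulocytes need, differed by 1.36 and -8.37. Of the Polycomb genes, which maintain repressed chromatin, 0 of 2 were called, and Ezh1 differed by 0.14 and -3.97. Of the 4 enzymes mettl7a1 was called higher, beside 2.94% of all 68 assays. Prmt2, an arginine methyltransferase, differed by -5.80 and -9.46.

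**Figure D5:**
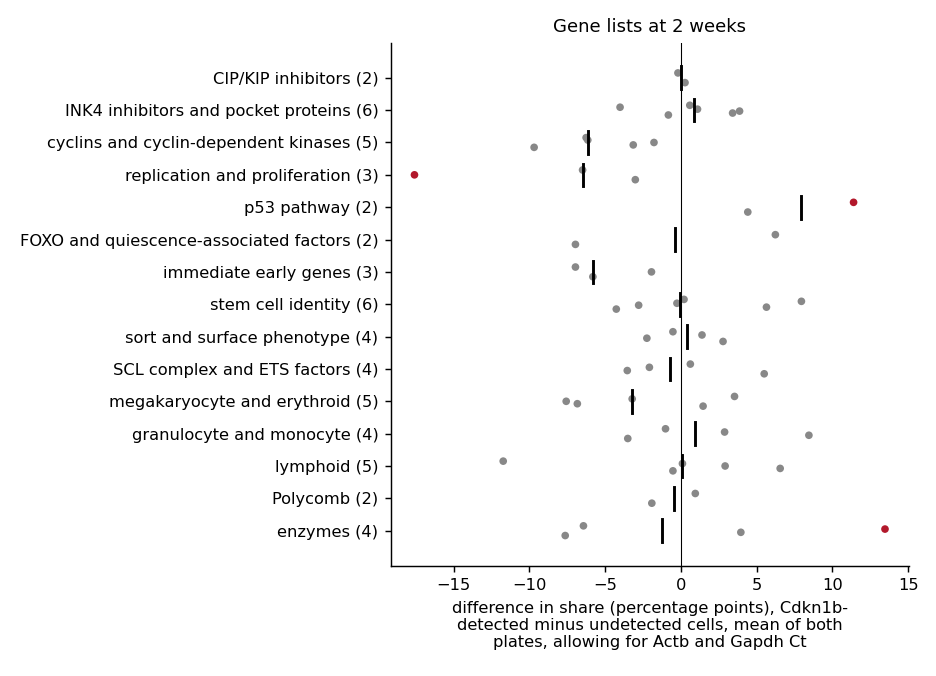
Mean adjusted difference in detection share over both plates (horizontal axis, in percentage points, Cdkn1b-detected minus undetected cells) for the assays of each gene list, with the number compared in brackets. Points are assays, red points are those called, and black bars are list medians; the cyclin, replication and immediate early lists have all their points below 0, with medians of -6.14, -6.49 and -5.81, and the p53 list has its 2 above 0.

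The second measure was the level among cells with a product, for the 65 assays with at least 10 such cells in each group on each plate. By a size of 0.5 log2 units in the same direction on both plates, 0 assays were higher (0.0%) and 0 lower (0.0%). The nearest was Cdt1, 72% of whose products came later than Ct 18. Its level was -8.27 ± 1.29 (SD, n = 19) in Cdkn1b-detected and -7.78 ± 1.41 (n = 21) in undetected cells on plate 1, and -8.36 ± 1.75 (n = 30) and -7.18 ± 1.21 (n = 23) on plate 2. The differences were -0.49 and -1.18, and -0.04 and -1.18 without centring. CDK2 came next: its level was -5.20 ± 0.77 (n = 20) and -4.63 ± 0.94 (n = 28) on plate 1, and -5.02 ± 1.34 (n = 31) and -4.54 ± 0.80 (n = 21) on plate 2. Its differences of -0.57 and -0.48 were smaller than the spread between cells, as were those of Cdt1, and without centring they were -0.09 and -0.36. Flt3 differed by -0.45 and -0.72, Notch1 by -0.44 and -0.55, and GMNN by -0.39 and -0.53. Without centring Flt3 differed by -0.49 and -0.75, Notch1 by -0.11 and -0.46, and GMNN by 0.30 and -0.45. The direction of GMNN on plate 1 thus came with the centring. TEK had the lowest mean difference, -1.02, made up of -1.66 and -0.37, with products as late as Ct 24.4, and among products at Ct 18 or below its mean was -0.38. Cdkn1c differed by -0.27 and 0.08 and Kit by -0.47 and -0.01.

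The direction of levels as a whole depended on the centring. With Actb and Gapdh subtracted the median difference over assays was -0.15, with 37 of 65 assays lower and 5 higher on both plates. Without centring the median was 0.13, with 5 lower and 33 higher on both plates. The shift of these Ct values towards earlier cycles was smaller than that of Actb and Gapdh themselves.

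Among the Cdkn1b-detected cells, the amount of Cdkn1b was compared with that of each other transcript, as rank correlations over the 42 cells of plate 1 and the 51 of plate 2, with missing products placed at the limit. Cells of a plate share their run and differ in total RNA, so these are descriptions. Of 81 assays, 2 had a rho of at least 0.2 on both plates and 0 had -0.2 or below. Slamf1 had 0.27 and 0.33 (Pearson's r 0.34 and 0.28), and 0.20 and 0.28 as partial correlations given Actb and Gapdh, the first just short of the size. Gapdh had 0.30 and 0.22 (r 0.33 and 0.28). As partial correlations 1 assay passed the size on both plates, Nfat5, a factor of the osmotic stress response, with 0.24 and 0.25, and 0 were negative past it. ndn, called above in detection share, had 0.18 and 0.34 (r 0.27 and 0.27). The median rho over assays was 0.03 on plate 1 and 0.10 on plate 2.

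At 5 weeks the same division left 10 undetected cells on each plate, so a single cell moves a share by 10 points. ndn had a product in 60 of 81 detected and 7 of 10 undetected cells on plate 1 and in 43 of 73 and 5 of 10 on plate 2, with adjusted differences of 3.88 and 8.84 points. mettl7a1 was found in 71 of 81 and 9 of 10 cells, and in 67 of 73 and 8 of 10, with -2.35 and 11.8 points. GMNN was found in 31 of 81 and 5 of 10 cells, and in 27 of 73 and 3 of 10, with -12.0 and 6.82 points. The adjusted difference of ndn was above 0 on all 4 plates, as were those of 9 other assays of the 68, and mettl7a1 and GMNN changed direction between the 5-week plates. None of these 3 was called at 5 weeks, where 7 of the 68 assays were higher (10.3%) and 1 was lower (1.47%). Those 7 were Cbx7, Cdkn2d, Ezh1, Nkx2.3, Rbl1, Tgm2 and vwf, and the lower one was Rb1. The mean Ct of Actb and Gapdh differed between the groups by -0.02 and -0.01 cycles at 5 weeks, and the number of other assays with a product by 1.5 and 4.92. On plate 2 that number was 57.5 ± 4.67 in detected and 52.6 ± 11.3 in the 10 undetected cells (SD over cells). The lowest undetected cell there had 27, and it enters every undetected share of that plate.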

How the data were processed

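Threshold cycles (Ct) of 96 assays in 357 single cells were used as the authors deposited them, without normalization and with 999 for a reaction with no product. Per the labels' protocols, cells were sorted into lysis buffer, and their transcripts were pre-amplified together for 22 cycles, diluted 5-fold and run for 30 cycles of EvaGreen PCR with a melting curve. The software and thresholds behind the Ct were not stated there. The dye binds double-stranded DNA of any sequence, and late products were not checked for identity here.

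Every column was mapped to a cell by its title. Of the assay names 94 matched a RefSeq symbol of GRCm38.p6 directly or in another case, 1 by a synonym and 1 (Sfpi) not at all. Detection was a Ct of 25 or below. Shares, least-squares fits of detection on group and covariate, and levels were computed within each plate and averaged over the 2 plates. Fits and level differences were tested on simulated plates. Python 3.11.15, pandas 2.3.3, numpy 2.4.6, scipy 1.17.1 and matplotlib 3.10.9 were used. The deposited Ct gives no count of molecules, so precision is set by the number of cells.

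The Cdkn1b grouping, the gene lists and the sizes that count as called were chosen with earlier results of these data known. Named assays were those called in share or level, all measured members of the CIP/KIP and cyclin lists, up to 2 of each other list by absolute adjusted difference, the sort and reference genes, and up to 5 in each direction in co-variation. Runx1t1, Cd34, Prdm16, Cdt1, Trp53, Flt3, Nfat5, the assays called at 5 weeks and those among the other observations were named after their values were seen. Alternatives were other Ct limits, covariates, models, sizes, filters and centrings, each plate left out, and, added after seeing the data, the block of rows (A to D, E to H).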

Additional observations from a re-analysis of the deposited data

How the results depend on the processing

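Counts of called assays were small and moved with few changes. In detection share, 2 higher and 1 lower held with Ct limits of 18 and 23, with any product counted, without the 2 cells with a Cdkn1b product later than Ct 20, with a logistic fit, with no filter on detection share and with the block of rows added (chosen after seeing the data). They were 1 and 0 with no covariate, with the number of other assays detected and with the mean Ct of broadly detected assays as covariate, 0 and 0 at 15 points, and 2 and 2 with both plates in 1 fit, where Notch1 joined GMNN. With 1 plate left out, the higher count was 6 either way and the lower ran from 5 to 6. Over the 14 alternatives the mean adjusted difference lay between 10.5 and 19.7 points for ndn, 8.33 and 14.2 for mettl7a1 and -20.4 and -9.17 for GMNN, with no change of sign.

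In level, 0 higher and 0 lower became 0 and 1 (Flt3) with centring on broadly detected assays, and 2 and 4 over all cells with missing products at the limit. With 1 plate left out the higher count ran from 1 to 3 and the lower from 6 to 8. The mean difference in Actb and Gapdh Ct was -0.28, with plates at -0.40 and -0.16. No paired analysis was possible because cell numbers within a plate only name cells. Groups of 42 to 51 cells gave the exact intervals of shares a median width of 26.3 points, so differences of 10 points are poorly resolved on 1 plate.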

Other observations

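Some further assays moved on 1 plate only. Hk3, the gene of hexokinase 3, had adjusted differences in detection share between Cdkn1b-detected and undetected cells of -0.03 and -14.2 points, Gfi1b, a repressor of erythroid and megakaryocytic cells, of -6.14 and 13.2, and Trib2, a pseudokinase, of -12.6 and 3.88. Of the Trib2 products 80.6% were later than Ct 18. In co-variation with the Cdkn1b level among detected cells, Prmt2 had rank correlations of -0.354 and -0.196, the second just short of the size of -0.2. The first value of each pair is plate 1, and all are descriptions without a test.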
